A study of Mus musculus with 6 samples.

Results

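Transcripts of the cap-binding complex eIF4F and of its regulators were followed in mouse splenic germinal centre B cells with and without a Uchl1 transgene. The 10 genes were chosen by name for their place in cap-dependent translation: Eif4e, Eif4g1, Eif4g2, Eif4g3, Eif4a1, Eif4a2, Eif4b, Eif4ebp1, Eif4ebp2 and Mknk1. Probe sets that the array annotation assigns to exactly 1 of these symbols were used, and the probe set with the highest mean over the 6 arrays stood for its gene. By this rule 9 of the 10 genes were measured, by 31 of the 34945 probe sets that name 1 gene, and Eif4g1 was not analysed here. ImHABCL6/Uchl1 mice (3 arrays) carried a Uchl1 transgene on top of the ImHABCL6 allele. ImHABCL6 mice (3 arrays), which carry that allele alone, served as controls, so both groups shared deregulated BCL6, a tagged form expressed from the immunoglobulin heavy-chain locus. Mice of both groups had received sheep red blood cells, an antigen that induces germinal centres, and the cells were taken from spleen with magnetic beads. The labels do not state the promoter of the Uchl1 transgene or the age and sex of the mice. The comparison asked how transgenic Uchl1 alters gene expression in these cells.

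eIF4F loads ribosomes onto capped mRNA. Eif4e encodes the subunit that holds the cap, Eif4g1 and Eif4g3 encode scaffolds that bridge the cap to the ribosome, and Eif4a1 and Eif4a2 encode paralogous RNA helicases that unwind the leader of the mRNA, helped by the cofactor eIF4B. The 4E-BP proteins, from Eif4ebp1 and Eif4ebp2, occupy the surface of eIF4E to which the scaffolds bind, and mTORC1 releases them by phosphorylation. Mknk1 encodes a kinase that docks on eIF4G and phosphorylates eIF4E. Rapidly dividing B cells depend on this machinery, and the Uchl1 protein has been described as promoting eIF4F assembly in B-cell lymphoma, which is a protein-level effect that arrays of mRNA do not measure.

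The promoters of 4 genes are shown, picked by values described below. By their brightest probe sets Eif4e and Mknk1 were lower on every ImHABCL6/Uchl1 array, while their other probe sets overlapped between the groups. The helicase paralogues Eif4a1 and Eif4a2 had their lowest values on different arrays. None of the 4 had an adjusted p under 0.05. Each sequence is the 250 bases before an annotated RefSeq start in build GRCm38.p6, 5′ to 3′ on the strand of the gene, in lower case. Capitals mark CACGTG, the E-box that MYC and related factors can bind, which reads the same on both strands. The windows are chr3:138527018-138527267 (plus strand) for Eif4e, chr4:115838948-115839197 (plus strand) for Mknk1, chr11:69672424-69672673 (minus strand) for Eif4a1 and chr16:23107218-23107467 (plus strand) for Eif4a2.
Eif4e: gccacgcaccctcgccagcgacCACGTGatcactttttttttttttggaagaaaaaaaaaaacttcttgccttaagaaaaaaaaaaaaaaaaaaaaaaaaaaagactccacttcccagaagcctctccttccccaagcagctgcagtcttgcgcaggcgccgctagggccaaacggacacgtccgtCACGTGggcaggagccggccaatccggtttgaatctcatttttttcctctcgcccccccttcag
Mknk1: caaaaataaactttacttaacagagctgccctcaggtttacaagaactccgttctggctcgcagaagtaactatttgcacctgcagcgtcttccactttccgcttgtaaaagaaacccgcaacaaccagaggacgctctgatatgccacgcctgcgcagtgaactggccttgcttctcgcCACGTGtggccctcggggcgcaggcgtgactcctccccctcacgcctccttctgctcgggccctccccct
Eif4a1: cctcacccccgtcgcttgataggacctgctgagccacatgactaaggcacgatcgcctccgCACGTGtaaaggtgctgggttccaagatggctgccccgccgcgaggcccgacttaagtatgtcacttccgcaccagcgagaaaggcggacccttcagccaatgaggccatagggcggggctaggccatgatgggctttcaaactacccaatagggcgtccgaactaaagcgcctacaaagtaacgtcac
Eif4a2: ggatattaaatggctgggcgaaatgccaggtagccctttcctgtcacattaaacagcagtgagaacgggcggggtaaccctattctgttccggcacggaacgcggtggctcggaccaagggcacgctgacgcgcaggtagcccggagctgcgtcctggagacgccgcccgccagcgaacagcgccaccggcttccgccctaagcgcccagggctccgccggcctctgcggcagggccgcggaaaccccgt
The Eif4e window held 2 copies, which began 228 and 64 bases before the start. The Mknk1 copy began 70 bases and the Eif4a1 copy 189 bases before it, and the Eif4a2 window held none. A further Mknk1 window, before another annotated start, held the same copy 93 bases upstream of that start. Of the 8 listed genes with a window, 4 had the motif in at least 1 of their windows (Eif4e, Eif4g1, Eif4a1 and Mknk1), against 6.86% of all 27025 genes with a window. Eif4g3, Eif4b and Eif4ebp2 had windows without it. A further Eif4e window, before an upstream start, lacked it as well. The genes were picked by name, so the share is a description of these sequences. Eif4g2 and Eif4ebp1 were not in the promoter table.

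Median levels of the 6 arrays lay between 5.56 and 5.67 on the log2 scale. Uchl1 itself (1448260_at) read 5.96, 5.87 and 6.02 on the ImHABCL6/Uchl1 arrays and 5.02 at most on the ImHABCL6 arrays, in the direction of the labels. Germinal centre markers were present on all arrays: 10 of 12 were measured, with gene means from 8.47 (Pax5) to 13.7 (Ms4a1). Of these 10, 3 were lower on average with the transgene and the rest higher. Other cells contributed RNA as well. The 12 measured erythroid markers of 18 listed averaged 8.83, 10.75 and 10.18 on the ImHABCL6/Uchl1 arrays and 10.38, 10.87 and 11.29 on the ImHABCL6 arrays, of which 11 were lower on average with the transgene and 1, Hba-a1, was at 4.19. The 6 macrophage markers averaged 5.98, 5.83 and 6.54 with the transgene and 6.03, 5.82 and 5.48 in controls, and 3 of them had means under 6, while all 6 were higher on average with the transgene. The 4 measured megakaryocyte markers averaged 9.27 at most with the transgene and from 8.30 to 9.22 in controls, and 1 of them was lower. Granulocyte markers were lower on average in 6 of 6 cases, 5 of them with means under 6. Their list means were 5.49, 5.63 and 5.21 with the transgene and 6.69, 5.60 and 5.26 in controls, so that only control replicate 1 stood apart. NK markers were lower in 4 of 4 cases, all with means under 6, T-cell markers in 2 of 5 and plasma cell markers in 3 of 5. The part of these cells in the differences below was not tested. In such a preparation, fewer cells of a type and less RNA per cell cannot be told apart. With limma, 0 of 18193 genes (0%) had a Benjamini-Hochberg adjusted p under 0.05, and 898 (4.94%) had an unadjusted p under 0.05. Uchl1 itself was 0.94 log2 units higher with the transgene and was not called either (limma adjusted p = 0.638, unadjusted 5.29e-05). An adjusted p above the threshold therefore does not show that a gene was unchanged. The 3 arrays of one genotype lay entirely on one side of the other 3 for 9.44% of genes, lower with the transgene for 5.49% and higher for 3.95%. Differences are ImHABCL6/Uchl1 minus ImHABCL6 in log2 units.

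No gene of the complex passed the threshold. Of the 9 measured genes 5 were lower and 4 higher on average, with a median log2 difference of -0.13, beside 49.4% of all genes lower and a median of 0.0029. All 9 had a mean level of at least 6, and the median over the 9799 genes with such a mean was -0.049. Non-overlapping groups occurred for 3 of the 9, beside 9.44% of all genes (5.49% lower and 3.95% higher): Eif4e and Mknk1 were lower, and Eif4g2 was higher. The adjusted p from limma was 0.998 for 8 genes and 0.983 for Mknk1. The 95% confidence intervals reached between 0.27 and 0.61 to either side of the difference, and the number of arrays, 3 per genotype, limits this precision. All of them but that of Mknk1 included 0. Without ImHABCL6/Uchl1 replicate 2, 4 of the 9 genes were lower and the median was 0.10. With the erythroid mean as a covariate the median was -0.29.

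**Figure D1:**
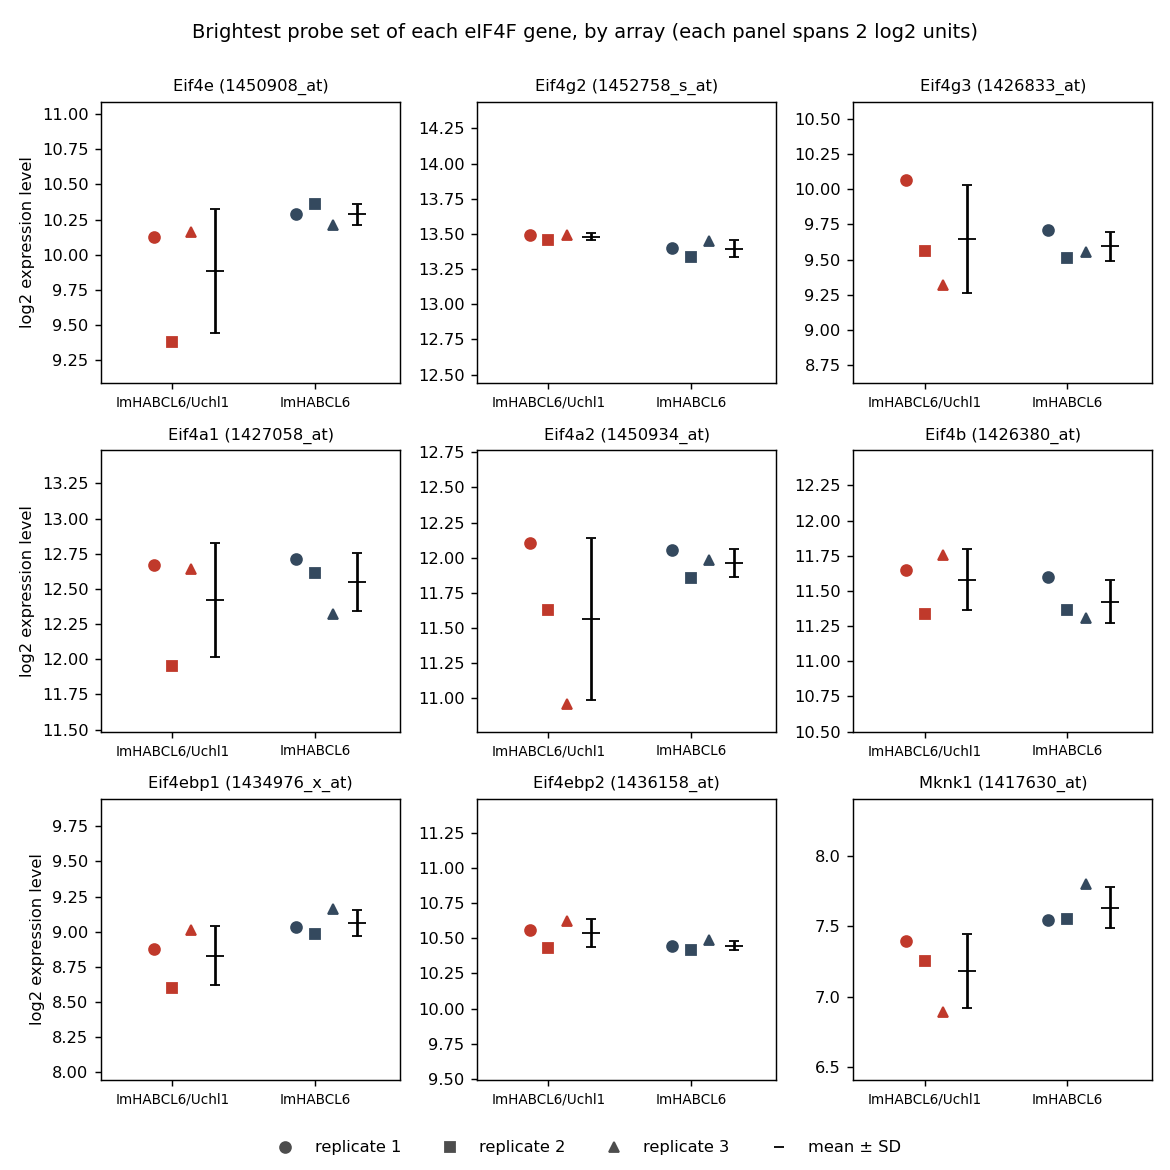
Log2 expression level (vertical axis) of the brightest probe set of each gene on the ImHABCL6/Uchl1 arrays (red, left) and the ImHABCL6 arrays (blue, right), with marker shape for the replicate number and bars for mean ± SD (n = 3 each). The ImHABCL6/Uchl1 arrays lie below all ImHABCL6 arrays for Eif4e and Mknk1, and single ImHABCL6/Uchl1 arrays lie far down for Eif4e (9.38), Eif4a1 (11.95) and Eif4a2 (10.96).

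Eif4e, the cap-binding subunit, was lower on each ImHABCL6/Uchl1 array, most of all on 1 of them. Its brightest probe set (1450908_at) read 10.12, 9.38 and 10.16 on the ImHABCL6/Uchl1 arrays and 10.29, 10.36 and 10.21 on the ImHABCL6 arrays. Replicate 2 of the transgenic group lay well below all others, and the remaining transgenic arrays lay just under the lowest control. Means were 9.89 ± 0.44 with the transgene and 10.29 ± 0.08 in controls (SD, n = 3 each), a log2 difference of -0.40 (SE 0.22, 95% interval from -0.90 to 0.10) or 1.32-fold lower. Limma gave an adjusted p of 0.998 (unadjusted 0.101), and an exact two-sided permutation test gave p = 0.1, the smallest that 3 against 3 arrays allow. The difference was -0.15 without replicate 2 of the transgenic group, -0.21 with array weights and -0.65 with the erythroid covariate.

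The other Eif4e probe sets separated the groups less. The second brightest (1423220_at) read 9.50, 8.70 and 9.54 with the transgene and 9.61, 9.53 and 9.44 in controls, so that only replicate 2 of the transgenic group stood apart. Another (1450909_at) read 6.99, 6.59 and 6.87 with the transgene and 7.02, 7.19 and 6.91 in controls, which overlap. These 3 are annotated with 1 source sequence and are not independent readings of the transcript. The dimmest (1444010_at), annotated with another, stayed between 3.53 and 3.85 on all arrays. Averaged over all probe sets, Eif4e differed by -0.20.

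Of the scaffold family, Eif4g2 and Eif4g3 were measured, and neither passed the threshold. Eif4g2 encodes DAP5, a relative of the scaffolds that lacks the eIF4E-binding part and serves cap-independent initiation. The brightest Eif4g2 probe set (1452758_s_at) read 13.50, 13.45 and 13.50 on the ImHABCL6/Uchl1 arrays and 13.40, 13.34 and 13.45 on the ImHABCL6 arrays. The groups did not overlap, but the lowest transgenic and the highest control value were equal to 2 decimals. The log2 difference was 0.09 (SE 0.12, 95% interval from -0.19 to 0.36, limma adjusted p = 0.998, exact permutation p = 0.1). A second Eif4g2 probe set (1428362_at) also did not overlap, at 10.65, 10.53 and 10.56 with the transgene and 10.53, 10.47 and 10.48 in controls, and 4 of the 5 Eif4g2 probe sets were higher on average. The 2 that did not overlap and the exception (1428363_at) are annotated with 1 source sequence. That exception was dim, at 3.86, 4.37 and 4.23 with the transgene and 4.18, 4.28 and 4.32 in controls. The main difference was 0.05 with arrays centred on their medians.

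Eif4g3, the scaffold paralogue eIF4GII, varied more between transgenic mice than between genotypes. Its brightest probe set (1426833_at) read 10.07, 9.56 and 9.32 on the ImHABCL6/Uchl1 arrays and 9.71, 9.51 and 9.56 on the ImHABCL6 arrays. Transgenic arrays held both the highest and the lowest value, and the groups overlapped. The log2 difference was 0.06 (SE 0.20, 95% interval from -0.40 to 0.52, limma adjusted p = 0.998). All 4 Eif4g3 probe sets were higher on average. The dimmest (1430578_at) did not overlap, at 4.79, 4.83 and 4.90 with the transgene and 4.68, 4.59 and 4.59 in controls, a difference of 0.22 (limma adjusted p = 0.999 over all probe sets). Leaving out ImHABCL6/Uchl1 replicate 1 put the main difference at -0.15, and the erythroid covariate put it at -0.22.

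Of the helicases, Eif4a1 overlapped between the genotypes. Its brightest probe set (1427058_at) read 12.67, 11.95 and 12.64 on the ImHABCL6/Uchl1 arrays and 12.71, 12.62 and 12.32 on the ImHABCL6 arrays. As for Eif4e, replicate 2 of the transgenic group was the lowest array, and the other transgenic arrays lay within the control range. The log2 difference was -0.13 (SE 0.22, 95% interval from -0.63 to 0.38, limma adjusted p = 0.998, exact permutation p = 0.7). Both other probe sets had their lowest value on the same array, 11.70 for 1434985_a_at and 10.01 for 1430980_a_at. Without that array all 3 probe sets were higher with the transgene, by 0.11, 0.02 and 0.20. With the erythroid covariate the main difference was -0.43.

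Eif4a2, the paralogue best known as the less abundant helicase of growing cells, was read by a single probe set (1450934_at). It read 12.11, 11.63 and 10.96 on the ImHABCL6/Uchl1 arrays and 12.05, 11.86 and 11.98 on the ImHABCL6 arrays. Here replicate 3 of the transgenic group was the lowest and replicate 1 the highest of all arrays. Means were 11.56 ± 0.58 with the transgene and 11.97 ± 0.10 in controls (SD, n = 3 each), a log2 difference of -0.40 (SE 0.27, 95% interval from -1.01 to 0.21). Limma gave an adjusted p of 0.998 and the exact permutation test p = 0.4. The difference was -0.10 without replicate 3, -0.67 without replicate 1 and -0.79 with array weights. Of all arrays, transgenic replicate 3 had the highest macrophage mean (6.54) and transgenic replicate 1 the lowest erythroid mean (8.83). The part of either in the Eif4a2 values was not tested.

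The within-array balance of the paralogues, Eif4a1 minus Eif4a2, was 0.56, 0.33 and 1.68 on the ImHABCL6/Uchl1 arrays and 0.66, 0.76 and 0.34 on the ImHABCL6 arrays. Replicate 3 of the transgenic group stood out, replicate 1 lay inside the control range and replicate 2 just under it. The balance differed by 0.27 (exact permutation p = 0.9, 0.9 after Benjamini-Hochberg adjustment over 3 balances), and by -0.14 without that replicate.

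Eif4b, whose protein stimulates the helicase and is a target of the S6 kinases, overlapped between the genotypes. The brightest Eif4b probe set (1426380_at) read 11.64, 11.33 and 11.75 on the ImHABCL6/Uchl1 arrays and 11.60, 11.36 and 11.31 on the ImHABCL6 arrays. The log2 difference was 0.16 (SE 0.16, 95% interval from -0.21 to 0.52, limma adjusted p = 0.998). The other probe sets, annotated with the same source sequence, differed by 0.0012 (1426378_at) and -0.07 (1426379_at), and both were lowest on replicate 2 of the transgenic group, at 10.08 and 8.92. The main difference was 0.28 without that array and 0.01 with the erythroid covariate.

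**Figure D2:**
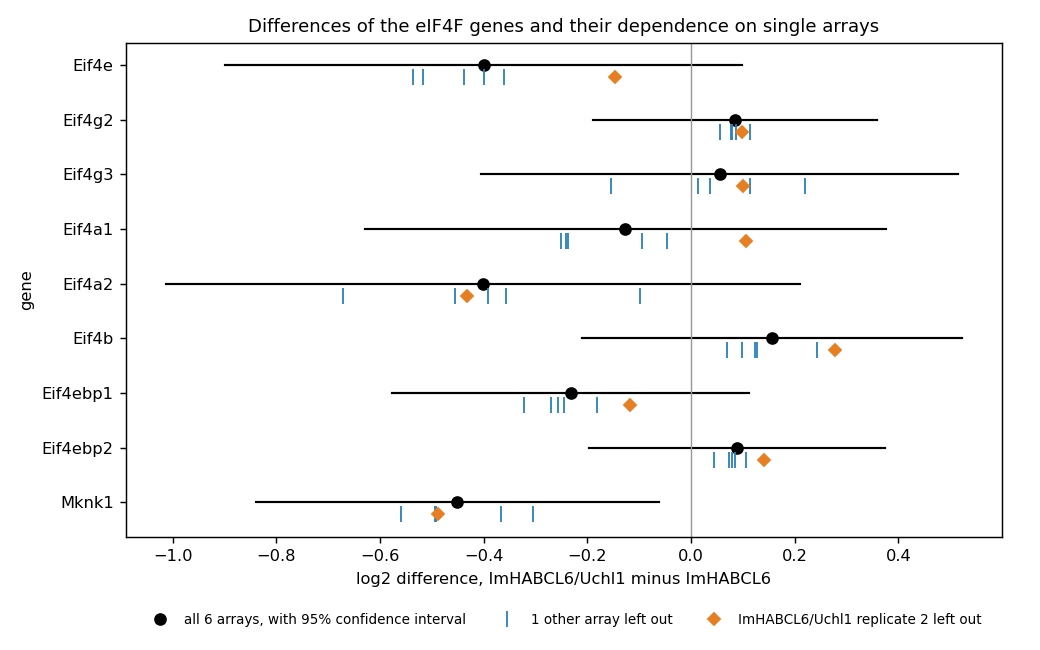
Log2 difference, ImHABCL6/Uchl1 minus ImHABCL6, of each measured gene (black points, with 95% confidence intervals from limma). Blue ticks and orange diamonds give the difference with 1 array left out, the diamonds for ImHABCL6/Uchl1 replicate 2. The interval of Mknk1 alone leaves out 0, and without replicate 2 Eif4e is at -0.15 and Eif4a1 at 0.11.

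The inhibitors differed in opposite directions on average. Eif4ebp1, the 4E-BP that is also induced in amino acid stress, had as its brightest probe set 1434976_x_at, a type whose probes can also match other transcripts. It read 8.88, 8.60 and 9.01 on the ImHABCL6/Uchl1 arrays and 9.04, 8.99 and 9.16 on the ImHABCL6 arrays. The value of transgenic replicate 3 fell inside the control range, and the other transgenic arrays lay below it. The log2 difference was -0.23 (SE 0.15, 95% interval from -0.58 to 0.11, limma adjusted p = 0.998, exact permutation p = 0.2). The plain probe set 1417562_at read 8.22, 7.54 and 8.18 with the transgene and 8.49, 8.36 and 8.15 in controls, a difference of -0.35, again with the lowest value on replicate 2. All 3 Eif4ebp1 probe sets were lower on average, the plain ones both annotated with 1 source sequence. The main difference was -0.12 without replicate 2 of the transgenic group and -0.08 with array weights.

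Eif4ebp2, the 4E-BP best known from brain, was slightly higher on average. The brightest Eif4ebp2 probe set (1436158_at) read 10.56, 10.43 and 10.62 on the ImHABCL6/Uchl1 arrays and 10.44, 10.42 and 10.48 on the ImHABCL6 arrays. Transgenic replicates 1 and 3 exceeded every control, and replicate 2 lay inside the control range. The log2 difference was 0.09 (SE 0.12, 95% interval from -0.20 to 0.37, limma adjusted p = 0.998). Of the 5 Eif4ebp2 probe sets 4 were higher on average, by 0.06 to 0.18, and 1 (1437733_at) differed by -0.03; a pair of the higher ones, including the brightest, shares a source sequence. The main difference was 0.16 after quantile normalization and 0.05 without ImHABCL6/Uchl1 replicate 3.

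The balance of inhibitor to cap-binding subunit was computed within each array, which shows unequal change and not absolute amounts. Eif4ebp2 minus Eif4e was 0.43, 1.05 and 0.46 on the ImHABCL6/Uchl1 arrays and 0.15, 0.06 and 0.28 on the ImHABCL6 arrays. By the brightest probe sets all transgenic arrays lay above all controls, replicate 2 farthest. The means were 0.65 ± 0.35 with the transgene and 0.16 ± 0.11 in controls (SD, n = 3 each), a difference of 0.49 (exact permutation p = 0.1, 0.3 after adjustment over the 3 balances). It was 0.29 without replicate 2, and also 0.29 with the mean of all probe sets (adjusted exact permutation p = 0.6). Eif4ebp1 minus Eif4e overlapped, at -1.24, -0.78 and -1.15 with the transgene and -1.25, -1.38 and -1.05 in controls, and differed by 0.17 (exact permutation p = 0.4, adjusted 0.6), or by 0.03 without replicate 2 of the transgenic group.

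Mknk1, the eIF4E kinase MNK1, was lower on each ImHABCL6/Uchl1 array by its brightest probe set. Its brightest probe set (1417630_at) read 7.40, 7.26 and 6.89 on the ImHABCL6/Uchl1 arrays and 7.55, 7.55 and 7.80 on the ImHABCL6 arrays. Every transgenic array lay below every control, with replicate 3 lowest. Means were 7.18 ± 0.26 with the transgene and 7.63 ± 0.15 in controls (SD, n = 3 each), a log2 difference of -0.45 (SE 0.17, 95% interval from -0.84 to -0.06) or 1.37-fold lower. The unadjusted p of 0.0283 ranked 514 among 18193 genes, the adjusted p in limma was 0.983, and the exact permutation test gave p = 0.1. Left-out arrays kept the difference between -0.56 and -0.31. Mknk1 was the 1 gene of 9 with an unadjusted p under 0.05, beside 4.94% of all genes.

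The Mknk1 difference rested on its brightest probe set. A second (1454119_at) read 6.44, 6.45 and 6.07 with the transgene and 6.24, 6.19 and 6.36 in controls, a difference of 0.06. The dimmest (1417631_at), annotated with the same source sequence as the brightest, read 5.68, 5.25 and 5.41 with the transgene and 5.23, 5.77 and 5.35 in controls, a difference of -0.0062. Both overlap, and the mean of all 3 probe sets differed by -0.13.

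Over all 31 probe sets, 15 were lower and 16 higher on average, with a median log2 difference of 0.0012. The groups did not overlap for 5 of the 31, of which 2 were lower and 3 higher, beside 9.53% of all probe sets that name 1 gene (5.13% lower and 4.4% higher). Of all such probe sets 48.1% were lower on average. An unadjusted p under 0.05 occurred for 1 of the 31, the brightest of Mknk1, beside 4.91% of all. The lowest adjusted p of the 31, over all such probe sets, was 0.992 in limma.

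**Figure D3:**
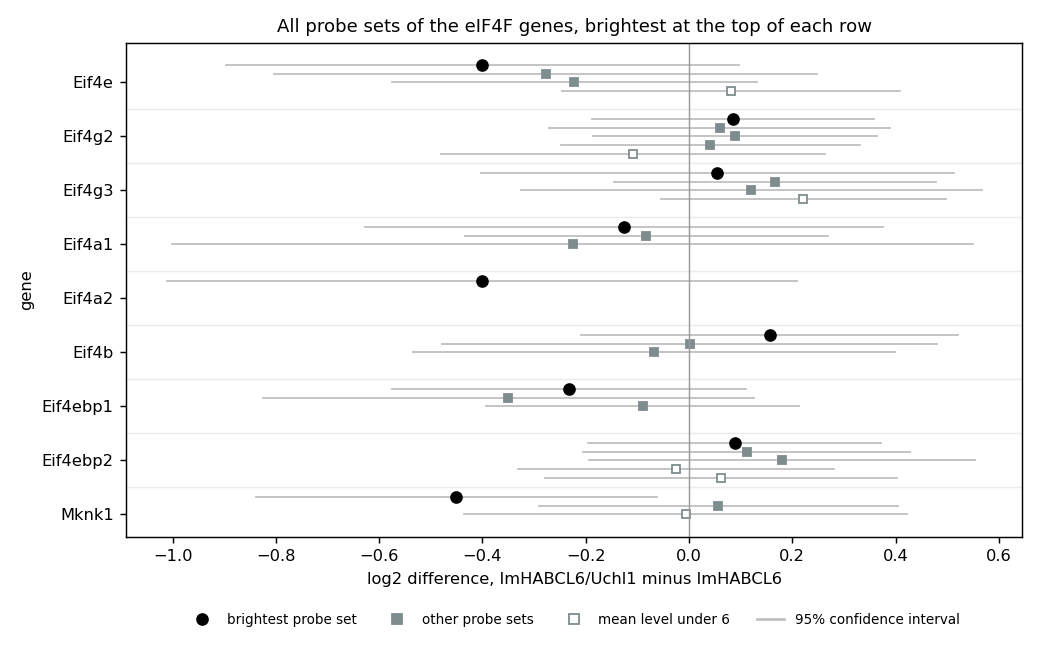
Log2 difference, ImHABCL6/Uchl1 minus ImHABCL6, of all 31 probe sets with 95% confidence intervals from limma, grouped by gene with the brightest (circle) at the top. Open symbols have a mean level under 6. The probe sets of Mknk1 spread from -0.45 to 0.06 and those of Eif4e from -0.40 to 0.08, while all of Eif4g3 lie above 0 and all of Eif4a1 and Eif4ebp1 below it.

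Lowest values on replicate 2 of the transgenic group were common among genes at large and not particular to the complex. Of the 9 genes 3 (33.3%) had their lowest value on replicate 2 and 3 (33.3%) on replicate 3, beside 45.0% and 16.0% of the 9799 genes with a mean of at least 6, which all 9 exceed. Counted by probe set, 12 of the 25 with such a mean (48%) were lowest on replicate 2, several of them probe sets of the same gene. The erythroid mean of replicate 2, 10.75, was the highest of the transgenic group and lay within the control range, and its germinal centre marker mean was 10.64, with 11.17 and 10.74 on the other transgenic arrays and 10.76 to 10.80 in controls. Eif4e was 0.71, Eif4a1 0.53 and Eif4ebp1 0.35 below their 6-array means on that array, whereas Eif4g2 was 0.01 above its mean. Eif4a2 and Mknk1, 0.81 and 0.52 below their means, were lowest on replicate 3 instead.

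**Figure D4:**
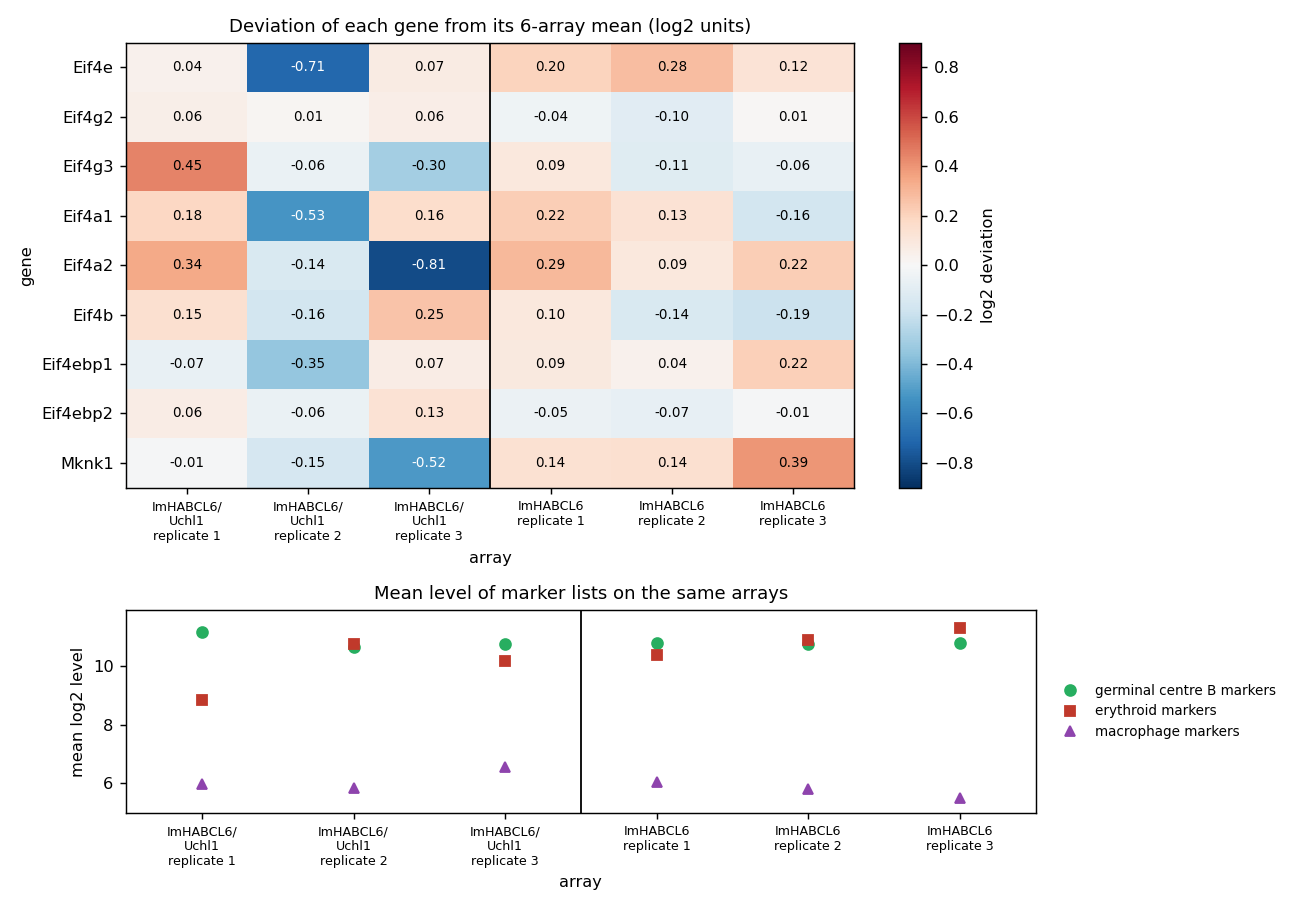
Top, deviation of each gene from its own 6-array mean in log2 units (blue below, red above), one column per array with ImHABCL6/Uchl1 left of the line and ImHABCL6 right of it. Bottom, mean log2 level of germinal centre, erythroid and macrophage markers on the same arrays; Eif4e, Eif4a1 and Eif4ebp1 are lowest on ImHABCL6/Uchl1 replicate 2, and Eif4a2 and Mknk1 on replicate 3.

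Further factors around the cap were read from a list of 21 genes, of which 17 were measured. Of these 12 (70.6%) were lower and 5 higher on average, with a median log2 difference of -0.12, and 0 passed the threshold in limma. Of all genes 49.4% were lower, with a median of 0.0029, and the median was -0.049 over the 9799 genes with a mean of at least 6. An unadjusted p under 0.05 occurred for 0 of the 17, beside 4.94% of all genes. The groups did not overlap for 3 genes, all lower with the transgene, beside 5.49% of all genes. Pabpc4, a poly(A)-binding protein read by a probe set that can also match other transcripts (1451296_x_at), had values of 11.50, 11.89 and 11.77 on the ImHABCL6/Uchl1 arrays and 12.00, 11.97 and 12.15 on the ImHABCL6 arrays, a difference of -0.32 (SE 0.15, limma adjusted p = 0.998). All transgenic arrays lay below the controls, replicate 1 farthest.

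Gigyf2, which works with the cap-binding repressor 4EHP, differed by -0.30 and read 8.88, 8.32 and 8.65 with the transgene against 8.92, 8.93 and 8.90 in controls. Paip1, a partner of poly(A)-binding protein that stimulates initiation, differed by -0.26 and read 8.16, 7.77 and 8.05 with the transgene against 8.23, 8.29 and 8.23 in controls. Both again were lowest on replicate 2. Eif4e3, a divergent cap-binding protein, differed by 0.22, with overlapping groups. Mknk2, the second eIF4E kinase, read 12.63, 12.62 and 12.47 with the transgene and 12.28, 12.44 and 12.55 in controls, a difference of 0.15 (limma adjusted p = 0.998), where the difference of Mknk1 was -0.45. The difference between the kinases was not tested. Without ImHABCL6/Uchl1 replicate 2, 9 of the 17 genes were lower and the median was -0.01.

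Genes with the closest profiles to Eif4e and Eif4a1 over the 6 arrays were picked by distance. After subtraction of each gene's mean, the smallest root mean square distances from Eif4e were 0.04 for Lsm10, a protein of the histone mRNA processing particle, 0.05 for Kpna3, a nuclear import receptor, and 0.06 for Blvra, a biliverdin reductase, among 4650 genes with a comparable range. For Eif4a1 they were 0.02 for the HSP70 cochaperone St13, 0.03 for the ribosomal protein Rps19 and 0.03 for Mien1, among 7932 genes. Lsm10, for example, read 7.65, 6.87 and 7.69 on the ImHABCL6/Uchl1 arrays and 7.84, 7.90 and 7.65 on the ImHABCL6 arrays. A low value on replicate 2, as in Eif4e, follows from this choice.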

How the data were processed

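Affymetrix mouse 430 2.0 arrays were hybridised with total RNA labelled by a 3' IVT kit, as the labels describe. The authors deposited 1 log2 expression level for each probe set and array. RMA and Partek are named in the submitters' processing notes, without versions or settings, and no detection calls were used here. RMA compresses differences of dim probe sets, and levels of different probe sets are not comparable.

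Gene symbols came from the platform annotation at GEO. Of 45101 probe sets 34945 named 1 gene, 932 named several and were left unnamed, and 64 were Affymetrix controls. Updating by Entrez identifier with RefSeq (GRCm38.p6) changed 0 symbols. The genotypes were set against each other in limma 3.58.1 under R 4.3.3 (lmFit, eBayes), with Benjamini-Hochberg adjustment over 18193 genes at a threshold of 0.05. Balances were tested by exact permutation. The balance of Eif4g1 to Eif4g3 was planned and not analysed here. The fit was tested on simulated data with known changes. Figures were drawn with matplotlib 3.10.9.

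The genes, lists and tests were chosen with earlier results of these data known. Named were all measured genes of the complex, Uchl1, the 4 genes of smallest p in the wider list, and the 3 closest profiles to Eif4e and to Eif4a1 among genes with at least 0.75 times their range and a described name. Mknk2, as the paralogue of Mknk1, Hba-a1 and single markers were named after their values were seen. The design text gives 3 mice per genotype, taken as separate animals. Same-numbered arrays had correlated deviations of 0.43, 0.19 and -0.26, so the numbers were not treated as pairs.

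Alternatives were the mean of all probe sets, leaving out suffixed probe sets or genes under a mean of 6, median centring, quantile normalization, an eBayes trend with robust options, weights per array, a replicate block, an erythroid covariate and leaving out each array.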

Additional observations from a re-analysis of the deposited data

How the results depend on the processing

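No alternative brought any of the 9 genes past the threshold: over 135 values from 15 settings, the lowest limma adjusted p was 0.153, for Mknk1 with array weights. All 15 settings called 0 of the genes tested, with 387 to 2819 genes at an unadjusted p under 0.05. The replicate block called 0 genes and left 1002 at an unadjusted p under 0.05. Each replicate number has an array of each genotype, so the block cannot change a difference of means. The Eif4e difference therefore stays at -0.40 by design. Not every array correlated best with its own number (ImHABCL6/Uchl1 replicates 2 and 3 and ImHABCL6 replicate 3 did not).

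Direction turned for Eif4g3 with array weights (-0.14) and the erythroid covariate (-0.22), for Eif4a1 with array weights (0.041), for Eif4ebp1 minus Eif4e with the mean of all probe sets (-0.019) and for 1426379_at after quantile normalization (0.022). The median was -0.29 for the measured genes and -0.28 for the wider list with the erythroid covariate. The cause was not tested. With 1 array left out, these medians ran from -0.25 to 0.10 and from -0.21 to -0.011, Eif4g3 (1426833_at) from -0.15 to 0.22, Eif4a1 (1427058_at) from -0.25 to 0.11 and Eif4a1 minus Eif4a2 from -0.14 to 0.54. Among other probe sets whose direction turned with 1 array left out, 1415863_at ran from -0.042 to 0.16, 1428363_at from -0.22 to 0.041, 1434985_a_at from -0.19 to 0.02, 1430980_a_at from -0.45 to 0.20, 1426378_at from -0.11 to 0.21 and 1426379_at from -0.20 to 0.13. Likewise 1437733_at ran from -0.073 to 0.038, 1456613_at from -0.015 to 0.17, 1454119_at from -0.0088 to 0.18 and 1417631_at from -0.12 to 0.15. Probe sets with a mean under 6 are near the low end of the scale, where RMA compresses differences.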
